A study of Mus musculus with 8 samples.

Results

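MP and TN CD8+ T cells of mCre mice were compared across all expressed genes, with 2 libraries of each subset, out of the 8 libraries of the series; the libraries were taken by the genotype and subset written in their titles. Of 29426 gene symbols in the count table, 12313 passed an expression filter and all of them entered the comparison; in it, positive values mean a higher level in MP. The cells came from mouse spleens, were enriched for CD8 on magnetic beads and were then sorted on CD8, CD4, CD44, CD122 and viability, with a stated purity of about 97%, and each RNA came from 20000 sorted cells. All groups share this procedure. mCre is a genotype label: the design text sets Cre against WT, and the series title joins miR-29 and Cre, but no source used here names the allele, the promoter that drives it or the strain. The WT mice, whose 2 TN and 2 MP libraries are used for comparison only, are described no further. Spleens were adult or neonatal, and the age behind each library, the number of animals pooled and whether the 2 libraries of a group came from separate animals are likewise not given, so p-values measure the spread between libraries, which may be technical.

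CD8+ T cells that have not met a foreign antigen are not all alike. Beside resting naive cells, the spleen holds cells with high CD44, an adhesion receptor for hyaluronan, and high CD122, the beta chain shared by the receptors for IL-2 and IL-15; these are called memory-phenotype or virtual memory cells, since they carry features of memory without infection. They are known to depend on IL-15 and the T-box factor Eomes, to arise in part early in life, and to answer inflammatory cytokines such as IL-12 and IL-18 with interferon gamma. The labels name the subsets TN and MP, the design text names them TN and VM, and neither spells the letters out. In bulk RNA, a change in the share of cells that express a gene and a change in its level per cell cannot be told apart.

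Total counts were 30057658 and 19304257 in the TN libraries and 18351092 and 24566129 in the MP libraries, within a range of 13479586 to 30057658 over the series, and within every group the libraries differed beyond counting noise (chi-square per degree of freedom 4.13 to 6.12, where counting alone gives about 1). Levels are given in CPM, counts scaled to 1000000 per library, for libraries 1 and 2 of each subset in that order, and differences as log2 fold changes with their standard error (SE). The genes of the sorted proteins followed the labels. Cd44 had 16.3 and 13 CPM in TN and 163 and 152 CPM in MP (log2 fold change 3.41, SE 0.0794, adjusted p = 2.9e-16). Il2rb, which encodes CD122, had 191 and 182 CPM in TN and 1374 and 1089 CPM in MP (log2 fold change 2.72, SE 0.115, adjusted p = 2.2e-06). For both genes each MP library lay far above each TN library. Cd8a had 1735 and 1583 CPM in TN and 1874 and 1743 CPM in MP and Cd8b1 had 1388 and 1219 CPM in TN and 1373 and 1276 CPM in MP; neither passed the test (adjusted p = 0.0751 and 0.803), though Cd8a did without TN library 1 (adjusted p = 0.0291) and without WT-TN libraries 1 or 2 (adjusted p = 0.049 and 0.038), and with no filter on low counts (adjusted p = 0.0318). Cd4 had 6 counts over the TN libraries and 10 over the MP libraries and was not tested.

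The 2 libraries of each subset differed from each other in the genes that separate the subsets. Of the 345 genes called more than 2-fold lower in MP, 248 (71.9%) were higher in MP library 2 than in MP library 1, against 147 (42.6%) in the same contrast of the 2 WT-MP libraries. Of the 637 genes called more than 2-fold higher, 207 (32.5%) were higher in MP library 2, against 314 (49.3%) in WT-MP. Among the 8313 genes that were not called, the share was 49.9%. In both sets of called genes, MP library 2 thus lay nearer to TN than MP library 1 did. In the TN libraries, 111 of the 345 falling genes (32.2%) were higher in TN library 2, against 144 (41.7%) in the same contrast of the WT-TN libraries, so that in these genes TN library 2 lay nearer to MP than TN library 1 did. The largest falls are therefore given with and without MP library 2.

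Of 12313 genes, 4000 (32.5%) were called at an adjusted p under 0.05 in edgeR's quasi-likelihood test, 2092 higher (17%) and 1908 lower (15.5%) in MP. Most calls were of small size: 1178 of the higher and 1272 of the lower genes changed by less than 1.5-fold. More than 2-fold higher were 637 genes (5.17%) and more than 2-fold lower 345 genes (2.8%). At the far end the numbers were unequal, since 200 genes rose over 8-fold and 34 fell over 8-fold. The median log2 fold change over all tested genes was 0.00, with a median size of 0.185, and these values stand beside every gene list below. The 2 MP libraries did not overlap with the 2 TN libraries in 67.1% of all tested genes, so a lack of overlap alone says little. A total of 264 tested genes had every TN library of both genotypes under 0.486 CPM, the level set by the filter, and 190 had every MP library under it; such genes entered the test through 1 subset and had to differ. Where leaving a single library out of the fit ended the call of a gene, that library and the value without it are given. Gene positions are those of GENCODE M21 on GRCm38, the assembly that mm10 names.

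**Figure D1:**
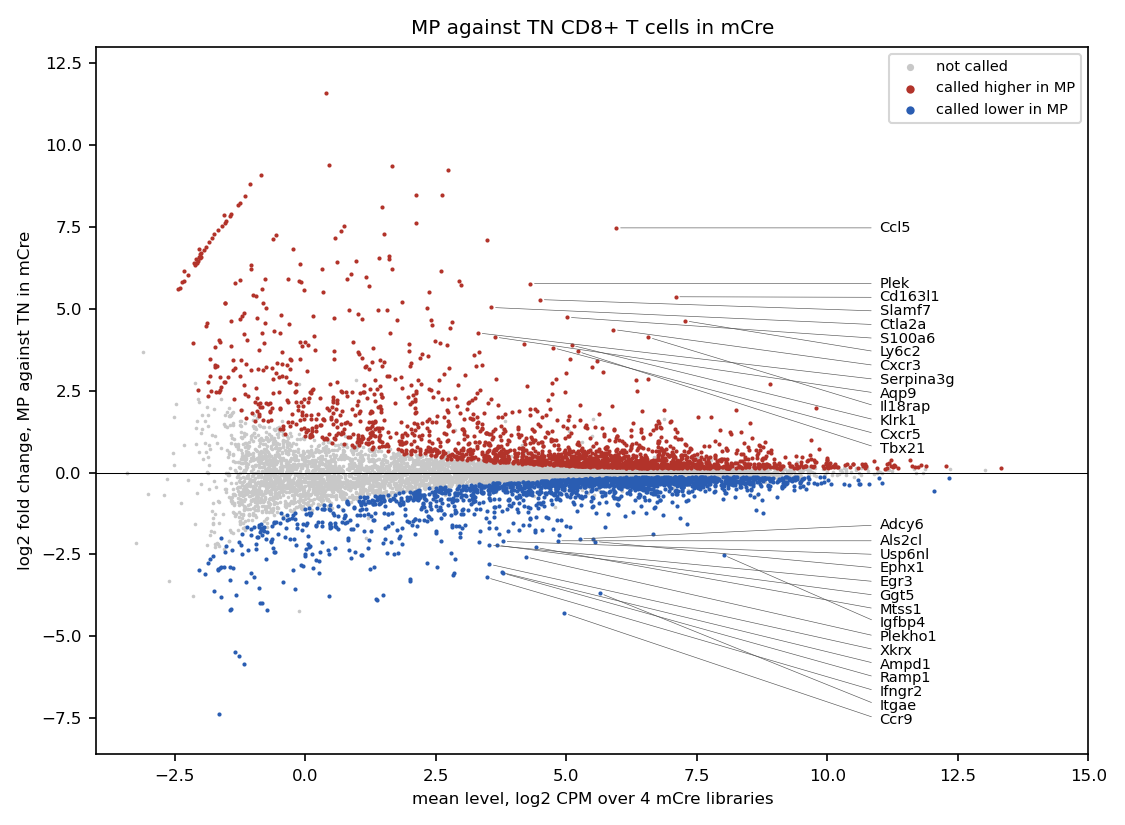
Mean level (log2 CPM over the 4 mCre libraries, x axis) against the log2 fold change between MP and TN (y axis) for the 12313 tested genes. Dark points are the 2092 genes called higher and the 1908 called lower, pale points were not called, and 14 of the 15 largest rises and the 15 largest falls among well-expressed genes are named. Genes with 0 counts in a subset stand at fitted values, which depend on the prior count; the named rises reach 7.47 (Ccl5) and the named falls -4.30 (Ccr9).

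The largest rises among well-expressed named genes were led by a chemokine, chemokine receptors and receptors of natural killer (NK) cells. Ccl5, a chemokine that memory and cytotoxic lymphocytes store and release (chromosome 11, 83525778 to 83530518, minus strand), had 4.71 and 4.52 CPM in TN and 838 and 811 CPM in MP (log2 fold change 7.47, SE 0.0777, adjusted p = 2.1e-22). Cxcr3, the receptor that leads T cells to sites of interferon gamma release (chromosome X, 101731535 to 101734269, minus strand), had 13.3 and 12.9 CPM in TN and 298 and 246 CPM in MP (log2 fold change 4.37, SE 0.0935, adjusted p = 2.4e-13). In both genes each MP library lay far above each TN library.

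Il18rap, the accessory chain of the IL-18 receptor (chromosome 1, 40515362 to 40551705, plus strand), had 19.6 and 26.3 CPM in TN and 421 and 375 CPM in MP (log2 fold change 4.13, SE 0.13, adjusted p = 2.5e-07). Tbx21, which encodes the T-box factor T-bet (chromosome 11, 97098071 to 97115331, minus strand), had 11.3 and 9.14 CPM in TN and 144 and 127 CPM in MP (log2 fold change 3.70, SE 0.11, adjusted p = 2.7e-10). Klrk1, the activating receptor NKG2D (chromosome 6, 129610323 to 129623864, minus strand), had 8.93 and 8.78 CPM in TN and 133 and 130.2 CPM in MP (log2 fold change 3.89, SE 0.0821, adjusted p = 1.9e-17). These 15 rises, and the 15 falls that follow, were taken among called genes with a mean log2 CPM of at least 3 whose subsets do not overlap, so the lack of overlap is part of the choice. Cxcr5, the receptor for the chemokine of B cell follicles, had 7.36 and 6.83 CPM in TN and 110.1 and 91.2 CPM in MP, a log2 fold change of 3.81 (SE 0.106). Cd163l1, a scavenger receptor family member known from gamma delta T cells, had 17.8 and 25.4 CPM in TN and 916 and 839.5 CPM in MP, a log2 fold change of 5.37 (SE 0.232, adjusted p = 1.0e-04). It was already present in TN libraries, and its TN libraries differed from each other more than its MP libraries did, as a share of their level.

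The other rises of this rank were those of Plek, a platelet and leukocyte substrate of protein kinase C (5.77), the SLAM family receptor Slamf7 (5.28), the cysteine protease inhibitor Ctla2a (5.04), the calcium-binding S100a6 (4.74), the surface antigen Ly6c2 (4.64), the serpin family protease inhibitor Serpina3g (4.26) and the water and glycerol channel Aqp9 (4.14). Ly6c2 had 28.5 and 33.9 CPM in TN and 799.8 and 743 CPM in MP. Serpina3g has near-identical paralogs in a cluster, and Ctla2a overlaps another annotated gene on its strand, so reads of these genes may have been counted for a neighbour or lost.

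The largest falls included receptors and integrins of naive and gut-homing T cells. Ccr9, the receptor for the gut and thymus chemokine Ccl25 (chromosome 9, 123678439 to 123784330, plus strand), had 169 and 138 CPM in TN and 3.46 and 11.3 CPM in MP (log2 fold change -4.30, SE 0.404, adjusted p = 0.00214). Itgae, the integrin chain CD103 that binds E-cadherin on epithelium (chromosome 11, 73090583 to 73147446, plus strand), had 192 and 202 CPM in TN and 7.2 and 22 CPM in MP (log2 fold change -3.68, SE 0.416, adjusted p = 0.00397). Ifngr2, the signalling chain of the interferon gamma receptor (chromosome 16, 91547072 to 91565623, plus strand), had 36.9 and 32 CPM in TN and 2.58 and 4.69 CPM in MP (log2 fold change -3.20, SE 0.166, adjusted p = 9.0e-10). In all of them both MP libraries were far under both TN libraries, and MP library 2 was above MP library 1. Igfbp4, a binding protein for insulin-like growth factors that marks naive T cells (chromosome 11, 99041244 to 99054392, plus strand), had 557 and 713 CPM in TN and 80.0 and 139.9 CPM in MP (log2 fold change -2.52, SE 0.31, adjusted p = 0.0053). Ampd1, the AMP deaminase, had 42.2 and 39.8 CPM in TN and 2.86 and 6.66 CPM in MP (log2 fold change -3.05, SE 0.274, adjusted p = 3.8e-04).

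The further falls in this rank were those of Ramp1, a subunit of the receptor for the neuropeptide CGRP (-3.07), Xkrx (-2.80), Plekho1 (-2.58), the membrane-bending protein gene Mtss1 (-2.29), the leukotriene-processing enzyme gene Ggt5 (-2.22), the immediate-early factor Egr3 (-2.21), the epoxide hydrolase gene Ephx1 (-2.11), Usp6nl, a GTPase-activating protein for Rab5 (-2.10), Als2cl (-2.08) and Adcy6, an adenylyl cyclase that makes cyclic AMP (-2.03). Als2cl overlaps a gene on the opposite strand, and no source used here says whether counting used strand.

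In all 15 of these genes MP library 2 was higher than MP library 1, whereas WT-MP library 2 was the higher one in 7 of 15. The excess of MP library 2 over MP library 1 came to between 2% and 13.6% of the gene's mean TN level, with a median of 7.43%; for Ccr9 it was 5.12% and for Igfbp4 9.43%. Without MP library 2, the log2 fold change became -5.47 for Ccr9, -4.78 for Itgae, -3.85 for Ampd1 and -2.99 for Igfbp4; without MP library 1 the same genes stood at -3.77, -3.16, -2.62 and -2.18. All 15 were called either way. In a fit on the 4 mCre libraries alone, Itgae and Igfbp4 lost their calls (adjusted p = 0.0524 and 0.0601).

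**Figure D2:**
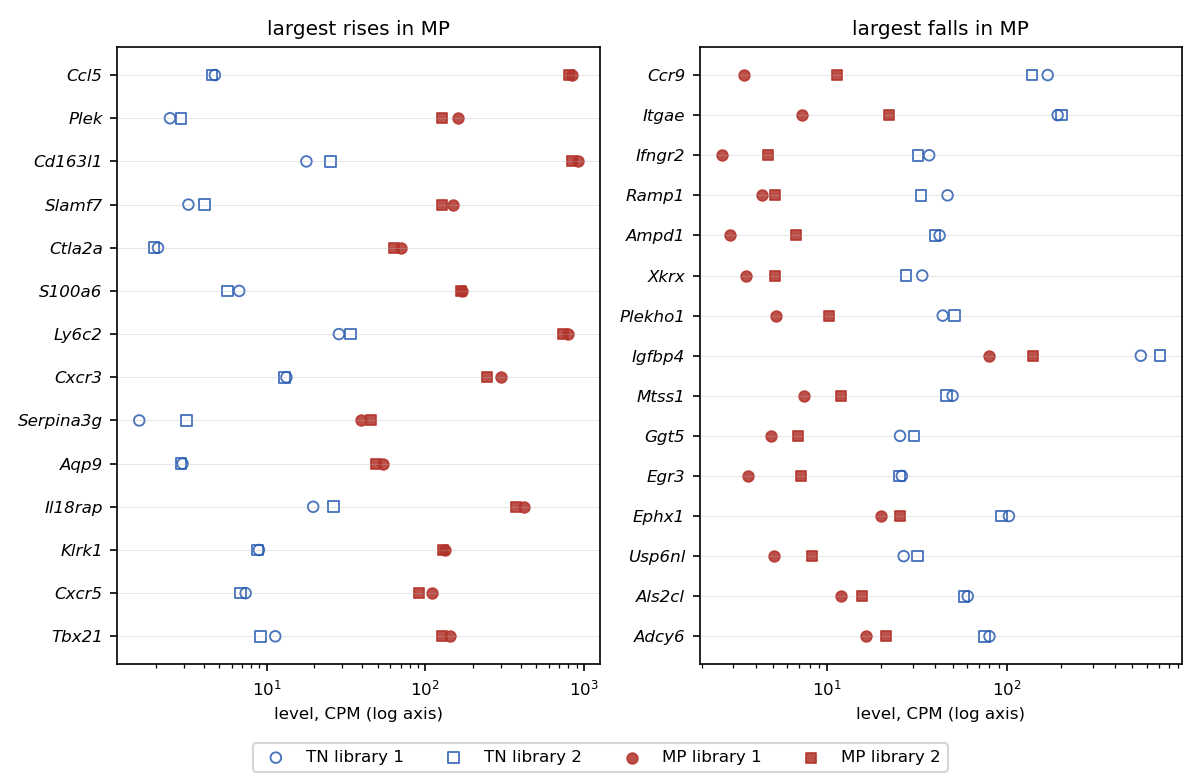
Levels in CPM (log axis) of 14 of the 15 genes with the largest rises (left) and the 15 with the largest falls (right) in each mCre library, with TN libraries as open and MP libraries as filled symbols, circles for library 1 and squares for library 2. The subsets do not overlap in any of these genes, as the choice required, and in each of the 15 falling genes the square of MP library 2 lies above the circle of MP library 1.

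**Figure D3:**
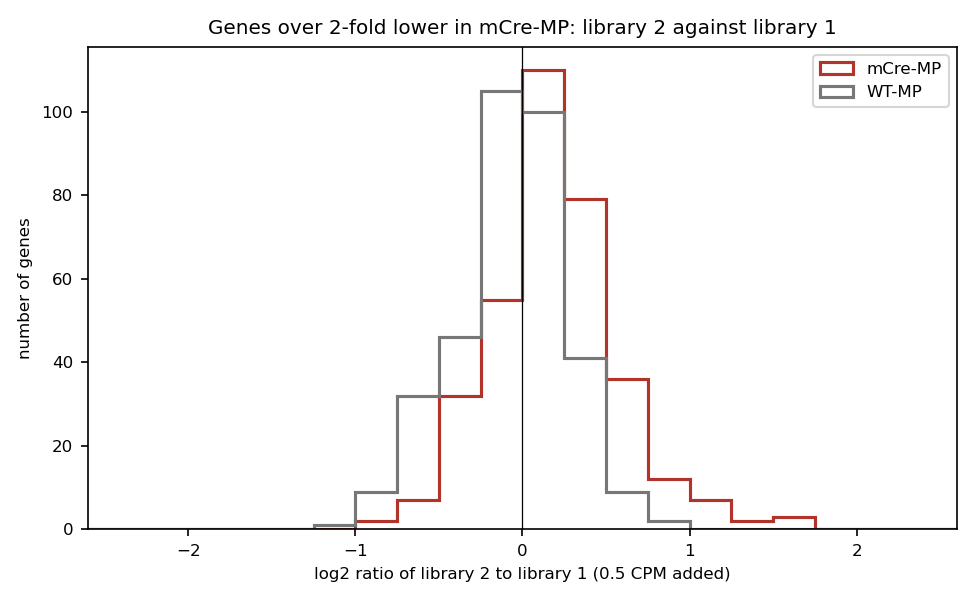
Number of genes against the log2 ratio of library 2 to library 1, for the 345 genes called more than 2-fold lower in mCre-MP, with the ratio in mCre-MP and in WT-MP drawn as separate histograms (0.5 CPM added to each level). In mCre-MP 248 of the 345 genes lie above 0, and in WT-MP 147 do.

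Promoter sequence was read for genes with a RefSeq entry (GRCm38.p6, 250 bases before to 50 after the start). The windows shown are those among the 15 largest rises that hold the RUNX letters TGTGGTT on either strand. The motif was chosen because Runx2, a gene of that factor family, was itself called higher (3.03). Runx2 had 554 counts over the TN and 3861 over the MP libraries, not scaled for depth. The other family genes did not show such a rise: Runx1 had 2331 and 2022 counts, and Runx3 9103 and 8072. Of the 12 promoters with an entry, 5 held the letters. Of the other motifs, whose letters are given below, AP-1 stood in 4 of the 12, TCF/LEF in 3, STAT in 2, and T-box and ETS in 0. The T-box factor genes Tbx21 and Eomes were also called higher. The motif is in capitals, each window is written 5′ to 3′ on the gene's own strand, and AACCACA is the motif on the other strand. RefSeq starts can differ from the GENCODE gene starts given above.
S100a6, chr3:90612805-90612831, plus strand: acagcatcagTGTGGTTcccagtcccc
Ly6c2, chr15:75112135-75112161, minus strand: gtcccttcccAACCACAgagtcctccc
Cxcr3, chrX:101734121-101734147, minus strand: gcaagttcccAACCACAagtgccaaag
Il18rap, chr1:40515382-40515408, plus strand: aactaaacctAACCACAacccctttct
Klrk1, chr6:129623977-129624003, minus strand: atagctgtgcTGTGGTTgtgtgggggt

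None of the 9 promoters with an entry among the 15 largest falls held the RUNX letters, and 1 held those of AP-1. Over wider groups they stood in 9.09% of 484 promoters of genes called more than 2-fold higher, 4.45% of 247 promoters of genes more than 2-fold lower, 4.7% of 9513 promoters of tested genes and 6.09% of 27025 promoters in all. The AP-1 letters TGANTCA, which read the same on both strands, stood in 11.8%, 8.91%, 5.89% and 8.97% of the same groups, and the STAT letters TTCNNNGAA in 10.7%, 6.48%, 8.2% and 9.55%. The T-box letters GGTGTGA stood in 4.34%, 4.05%, 4.12% and 4.6%, the TCF/LEF letters TCAAAG in 14.9%, 10.5%, 14.2% and 18.2%, and the ETS letters CCGGAAG in 8.26%, 6.48%, 20.9% and 9.93%. The share with RUNX letters was 4.45% for falling and 4.7% for all tested genes, and ETS letters were rarer in both changed groups than among tested genes. Motifs may overlap each other, a match is not a bound site, and no test was made.

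Among secreted mediators, effector chemokines and cytokines rose. Of 16 tested genes of cytokines and chemokines, 12 rose and 1 fell (median log2 fold change 1.79), and 4 of them had no TN library above the filter level. The fall was that of Flt3l (-0.23, not called without MP library 1 or 2 or TN library 2, at -0.25 to -0.19), a growth factor of dendritic cells. Ifng, the interferon gamma gene, had 0.164 and 0.205 CPM in TN and 30.6 and 27.2 CPM in MP (log2 fold change 7.28, SE 0.27, adjusted p = 1.7e-12). Xcl1, which attracts cross-presenting dendritic cells, had 0.36 and 0.103 CPM in TN and 18.8 and 14.5 CPM in MP (log2 fold change 5.97, SE 0.258, adjusted p = 9.2e-13). Ccl4, an inflammatory chemokine, had 0.262 and 0.205 CPM in TN and 6.43 and 6.54 CPM in MP. Each was close to 0 in both TN libraries. Tnf was already expressed in TN, with 32.4 and 28.1 CPM in TN and 65.6 and 60.7 CPM in MP (log2 fold change 1.05, SE 0.079, adjusted p = 3.3e-09), and so was the CD30 ligand gene Tnfsf8 (1.17). Ccl3 had 2 counts over the TN libraries and 117 over the MP libraries, a ratio of depth-scaled counts of 67.3 (95% exact interval 18.2 to 562, counting error only). Csf2, the GM-CSF gene, had 1 and 24 counts, a ratio of 27.6 (interval 4.5 to 1135).

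Genes of cytotoxic granules and death ligands rose in 18 of 24 tested members and fell in 1 (median 0.80). Of the 24, 3 had every TN library under the filter level and so had to differ. The fall was that of Ctsc (-0.27), the protease that activates granzymes. Prf1, the pore-forming perforin gene, had 87 and 94.7 CPM in TN and 223 and 206 CPM in MP (log2 fold change 1.24, SE 0.0591, adjusted p = 3.9e-12). Fasl, the ligand of the death receptor Fas, had 0.0655 and 0.103 CPM in TN and 11.7 and 12.9 CPM in MP (log2 fold change 7.16, SE 0.302, adjusted p = 6.1e-13). Gzmm had 2.32 and 2.00 CPM in TN and 21.7 and 18.3 CPM in MP and Gzma had 1.41 and 1.9 CPM in TN and 10.1 and 12.6 CPM in MP, with log2 fold changes of 3.18 and 2.82. The granzyme B gene Gzmb rose by 3.62. Genes with a level in TN, such as Ctsw (0.81), the granule protein gene Nkg7 (0.68), Cst7 (0.76) and the TRAIL gene Tnfsf10 (1.11), rose by smaller amounts than Gzmm, Gzma and Gzmb. Gzmc, a granzyme gene at a low level in both subsets, had 0.491 and 0.359 CPM in TN and 0.55 and 0.37 CPM in MP and was not called (adjusted p = 0.961).

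Receptors of the NK type and their adaptors differed widely in their TN level. All 25 tested members of that list were called higher, but 15 of them had every TN library under the filter level and so had to differ; 2 of the 27 listed genes were not tested. Klrc1, the inhibitory chain NKG2A, had 0.0327 and 0.154 CPM in TN and 55 and 58 CPM in MP (log2 fold change 9.36, SE 0.213, adjusted p = 5.2e-17). Klrc2, the activating chain NKG2C, had 0.458 and 0.513 CPM in TN and 14.1 and 16.1 CPM in MP (log2 fold change 4.96). Klri2 had 1 count over the TN libraries and 740 over the MP libraries, a ratio of 851 (95% exact interval 152 to 33662, counting error only). Klrg1, a receptor for cadherins, had 0 counts in TN and 61 in MP and was at least 23.4-fold higher, taking 3 counts over the group as the limit that 0 allows. Klrb1c, the NK1.1 antigen, had 0 and 87 counts and was at least 33.4-fold higher, and Klra7 of the Ly49 family had 0 and 73 counts and was at least 28-fold higher. Klra genes are near-identical to each other, so their reads may be split or lost. Several members were well expressed in TN and rose by less than 2-fold. Klrd1, which encodes CD94, the partner of the NKG2 chains, had 183 and 181 CPM in TN and 253 and 255 CPM in MP (log2 fold change 0.48), and Hcst, the adaptor DAP10, had 83.1 and 72.3 CPM in TN and 104 and 103 CPM in MP (log2 fold change 0.41). Crtam and Cd160 had 49.3 and 47.2 CPM in TN and 96 and 92.1 CPM in MP, and 28.6 and 26.2 CPM in TN and 47.6 and 52.7 CPM in MP, with log2 fold changes of 0.96 and 0.87. With the 6 members at 0 in TN set at their bound, the list median moved from 4.69 to 3.20.

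Chemoattractant receptors changed in both directions. Of 22 tested, 16 rose and 4 fell (median 1.12), and 3 of the 22 had every TN library under the filter level and so had to differ. Ccr2, which leads cells to inflamed tissue, had 0.164 and 0.411 CPM in TN and 51.4 and 52.6 CPM in MP (log2 fold change 7.61, SE 0.197, adjusted p = 7.6e-16). Cx3cr1, the fractalkine receptor of effector cells, had 0.327 and 0.308 CPM in TN and 23.4 and 24.5 CPM in MP (log2 fold change 6.20, SE 0.314, adjusted p = 1.1e-09). Gpr15, a homing receptor of the large bowel, had 0.72 and 0.975 CPM in TN and 28.7 and 25.2 CPM in MP (log2 fold change 5.02), and overlaps a gene on the opposite strand. Gpr174, a receptor for lysophosphatidylserine, was expressed in both subsets and rose by 1.07. The falls were those of Ccr9, above, and of Ccr4, a receptor of skin-homing cells, with 8.35 and 6.47 CPM in TN and 1.15 and 1.48 CPM in MP (log2 fold change -2.48, SE 0.258, adjusted p = 3.4e-07). Smaller falls were those of the lymph node homing receptor gene Ccr7 (-0.43) and of S1pr1 (-0.29), a receptor gene needed to leave lymphoid organs.

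Adhesion receptors were divided, with 10 of 30 higher and 11 lower (median 0.00). Itgb1, the beta-1 integrin chain, had 107 and 97.3 CPM in TN and 351 and 314 CPM in MP (log2 fold change 1.70, SE 0.0618, adjusted p = 7.3e-14), and its partners Itga1 and Itga2, which make collagen receptors with it, rose by 6.44 and 1.27. Itga1 was the 1 tested member of this list with every TN library under the filter level, and so had to differ. Itgax, the CD11c chain, had 1.37 and 1.49 CPM in TN and 30.01 and 31.4 CPM in MP (log2 fold change 4.43, SE 0.136, adjusted p = 4.2e-15). Pecam1, Cd6 and Itga5 fell by 0.70, 0.66 and 1.59. Glycan enzymes, among them those that build selectin ligands and sialic acid caps, rose in 14 and fell in 5 of 31 tested members (median 0.25). St3gal6, a sialyltransferase of selectin ligands, had 37.1 and 39.1 CPM in TN and 98.2 and 94 CPM in MP (log2 fold change 1.34, SE 0.0645, adjusted p = 4.5e-12), while St8sia1, the disialoganglioside synthase, had 61.1 and 58.3 CPM in TN and 16.8 and 20.7 CPM in MP (log2 fold change -1.66, SE 0.0944, adjusted p = 2.7e-10). St3gal6 overlaps a gene on the opposite strand. The other falls in the list were St8sia6 (-2.32, not called without MP library 2, at -1.85), St3gal1 (-0.83), Chst15 (-0.64) and Mgat5 (-0.17, not called without MP library 1 or 2 or TN library 1, at -0.20 to -0.12).

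Of 14 tested receptors that use the common gamma chain or gp130, 6 rose and 3 fell, and of 15 other cytokine receptors 9 rose and 4 fell (medians 0.44 and 0.34). Il7r, the receptor for the survival cytokine IL-7, had 567 and 597 CPM in TN and 1171 and 1166 CPM in MP (log2 fold change 1.01, SE 0.0505, adjusted p = 8.8e-12). Il18r1, the binding chain for IL-18, had 149 and 168 CPM in TN and 623 and 564 CPM in MP (log2 fold change 1.91, SE 0.0632, adjusted p = 2.9e-14). Il6st, the gp130 chain of the IL-6 receptor, had 668 and 665 CPM in TN and 277 and 289.6 CPM in MP (log2 fold change -1.23, SE 0.0505, adjusted p = 4.1e-13), and its partner Il6ra fell by 0.55. The 2 chains of the interferon gamma receptor moved in opposite directions: Ifngr1, the ligand-binding chain, had 151 and 164 CPM in TN and 389 and 386 CPM in MP (log2 fold change 1.30, SE 0.0542, adjusted p = 5.1e-13), while Ifngr2 was among the largest falls. The other falls were Il27ra (-0.32), Sigirr (-0.42), Il17ra (-0.35) and Tnfrsf1a (-0.23, not called without MP library 1 or 2 or TN library 1, at -0.26 to -0.14). Il4ra rose by 0.86, Il2ra (CD25) by 1.89, Il12rb1 by 0.77, Il15ra by 0.61, and the IL-10 receptor chain Il10ra by 1.37.

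Downstream of these receptors, 6 of 28 JAK, STAT and SOCS genes rose and 5 fell (median 0.03), near the shares over all genes. Cish and Socs2, inhibitors of cytokine signalling, rose most, while Socs1 and Socs3 to Socs7 did not pass the test. Cish had 2.62 and 2.93 CPM in TN and 12.9 and 13.5 CPM in MP (log2 fold change 2.26, SE 0.156, adjusted p = 1.0e-09), and Socs2 had 0.295 and 0.513 CPM in TN and 4.62 and 3.95 CPM in MP (log2 fold change 3.46, SE 0.315, adjusted p = 5.5e-08). Stat5b had 231 and 227 CPM in TN and 169 and 168 CPM in MP (log2 fold change -0.44), and Stat5a fell by 0.28. Stat4, which carries IL-12 signals, rose by 0.69, the kinase gene Pim1 by 0.72 and Jak1 by 0.27. The other rise was Ptpn2 (0.31), and the other falls were Stat6 (-0.29), Stat2 (-0.25, not called without MP library 1 or TN library 2, at -0.23 to -0.17) and Pias2 (-0.23, not called without MP library 2 or TN library 2, at -0.18 to -0.16). Among 23 genes of the TGF-beta and Smad pathway, 6 (3 without MP library 1 or TN library 1) rose and 9 (5 without MP library 1) fell. Bmpr1a, a receptor for bone morphogenetic proteins, had 0.916 and 1.03 CPM in TN and 17 and 12.5 CPM in MP (log2 fold change 3.92, SE 0.206, adjusted p = 1.6e-11), and Smad3 had 78.7 and 70.6 CPM in TN and 234 and 199.7 CPM in MP (log2 fold change 1.53, SE 0.0894, adjusted p = 2.3e-07). Tgfbr3, the betaglycan coreceptor, fell by 1.61, and Tgfbr2 and the inhibitory Smad7 fell by 0.25 and 0.34.

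Transcription factors of memory and effector cells rose in 18 of 33 tested members and fell in 6 (3 without MP library 1 or TN library 1) (median 0.47). Eomes, the T-box factor on which memory-phenotype cells depend, had 30.9 and 38.2 CPM in TN and 206 and 183 CPM in MP (log2 fold change 2.50, SE 0.11, adjusted p = 3.2e-07). Runx2 (chromosome 17, 44495987 to 44814797, minus strand) had 10.8 and 11.4 CPM in TN and 90.8 and 90.8 CPM in MP (log2 fold change 3.03, SE 0.0825, adjusted p = 6.7e-16). Hopx, a homeodomain protein of effector and memory T cells, had 17.6 and 18.6 CPM in TN and 147 and 153 CPM in MP (log2 fold change 3.06, SE 0.0601, adjusted p = 5.5e-18). Bhlhe40, Prdm1 (Blimp-1) and Nfil3 rose from low TN levels, by 4.65, 3.34 and 2.38. Zbtb7b, known for directing CD4 T cell development, had 2.45 and 1.85 CPM in TN and 16.3 and 14.9 CPM in MP (log2 fold change 2.82). Ikzf2, the Ikaros family factor Helios, went the other way, with 34.8 and 32.8 CPM in TN and 16.3 and 17.4 CPM in MP (log2 fold change -1.01, SE 0.0942, adjusted p = 7.9e-08).

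Factors of naive and stem-like T cells fell in 16 of 32 tested members and rose in 3 (median -0.30). Most of these falls were small. Tcf7, which encodes TCF-1, had 1728 and 1816 CPM in TN and 1298 and 1457 CPM in MP (log2 fold change -0.36, SE 0.0533, adjusted p = 2.6e-05), Lef1 had 549 and 453 CPM in TN and 308 and 293 CPM in MP (log2 fold change -0.74, SE 0.0812, adjusted p = 3.1e-05), and Bcl11b and Ets1 fell by 0.36 and 0.37. Sox4 had 13.3 and 13 CPM in TN and 1.37 and 2.39 CPM in MP (log2 fold change -2.76, SE 0.231, adjusted p = 3.8e-08), the largest fall in the list. Tox fell by 0.71. Myb, by contrast, had 7.59 and 6.62 CPM in TN and 25.9 and 20.7 CPM in MP (log2 fold change 1.70, SE 0.129, adjusted p = 3.9e-09), and Gata3 and Tcf12 rose by 0.61 and 0.28. In a list of 30 surface and other genes typical of naive T cells, 22 fell and 2 rose (median -0.57); the rises were Il7r and Nsg2 (0.59), and Rflnb (-1.38), Actn1 (-0.74) and Rapgef4 (-0.71) were among the falls.

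Genes of T cell receptor signalling changed by less than 2-fold: of 33 tested, 7 (4 without MP library 1) rose, 11 (7 without MP library 1 or TN library 2) fell, and none passed 2-fold in either direction (median -0.01). The zeta chain gene Cd247 fell by 0.46, the adaptor Lat by 0.41 and Rasgrp1, which activates Ras, by 0.68, whereas the kinases Fyn, Txk and Tec rose by 0.44, 0.46 and 0.68. Cd247 overlaps a gene on the opposite strand. Negative regulators moved both ways, 12 higher and 13 lower of 33. Cd5, a receptor whose level tracks self-reactivity in naive T cells, had 345 and 331 CPM in TN and 189.5 and 201 CPM in MP (log2 fold change -0.79, SE 0.0495, adjusted p = 2.3e-10). Spry2, an inhibitor of the ERK pathway, had 0.229 and 0.462 CPM in TN and 9.45 and 9.3 CPM in MP (log2 fold change 4.84, SE 0.276, adjusted p = 5.5e-11). It was the 1 member of the 33 with every TN library under the filter level, and so had to differ. The adaptor Lax1 and the phosphatase gene Ptpn22 rose by 1.03 and 0.56, and Ptpn6 (SHP-1) fell by 0.41.

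Immediate-early genes, which are induced within minutes of receptor signals or of handling, also divided. The Egr family fell: Egr3 had 26 and 25.3 CPM in TN and 3.63 and 7.12 CPM in MP and Egr2 had 8.71 and 8.31 CPM in TN and 2.69 and 3.66 CPM in MP (log2 fold change -1.40). Ier3 had 14.9 and 12.7 CPM in TN and 38.7 and 35.4 CPM in MP (log2 fold change 1.41, SE 0.099, adjusted p = 1.3e-09) and the ERK phosphatase gene Dusp5 had 18.1 and 15.9 CPM in TN and 40.7 and 41.2 CPM in MP (log2 fold change 1.26, SE 0.0882, adjusted p = 1.3e-09), and the activation marker Cd69 rose by 0.55. Of 29 tested, 9 rose and 5 fell, the others being Egr1 (-0.52, not called without MP library 1 or TN library 1 or 2, at -0.58 to -0.42), Dusp2 (-0.86) and Btg1 (-0.20, not called without MP library 1 or TN library 2, at -0.15 to -0.10).

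Costimulatory receptors rose in 7 and fell in 3 of 19 tested members. Cd28 had 133 and 125 CPM in TN and 199 and 172 CPM in MP (log2 fold change 0.52, SE 0.0613, adjusted p = 1.6e-06), and Tnfrsf9, the 4-1BB gene, rose by 1.31 from a low level. Cd40lg, the ligand by which helper cells activate B cells, had 8.84 and 6.62 CPM in TN and 1.21 and 2.1 CPM in MP (log2 fold change -2.20, SE 0.242, adjusted p = 7.1e-07), and Tnfrsf14 and Tnfrsf13b fell by 0.71 and 0.54. Of 16 coinhibitory genes 10 rose and 3 fell (median 0.92). Lag3 had 0.851 and 1.28 CPM in TN and 4.84 and 6.05 CPM in MP (log2 fold change 2.39, SE 0.315, adjusted p = 7.0e-06), Pdcd1 (PD-1) had 2.45 and 2.57 CPM in TN and 5.66 and 5.55 CPM in MP (log2 fold change 1.16, SE 0.223, adjusted p = 4.5e-04), and Tigit and Ctla4 rose by 2.22 and 2.45. Cd200 and Vsir fell by 1.72 and 0.26, as did Cd200r1, the gene of the Cd200 receptor (-1.57, not called without MP library 1 or TN library 1, at -1.25 to -1.09). In the SLAM family Slamf7, Cd244a (3.17), Ly9 (0.69) and the adaptor gene Sh2d1a (0.57) rose while Slamf6 and Cd84 fell by 0.60 and 0.32.

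**Figure D4:**
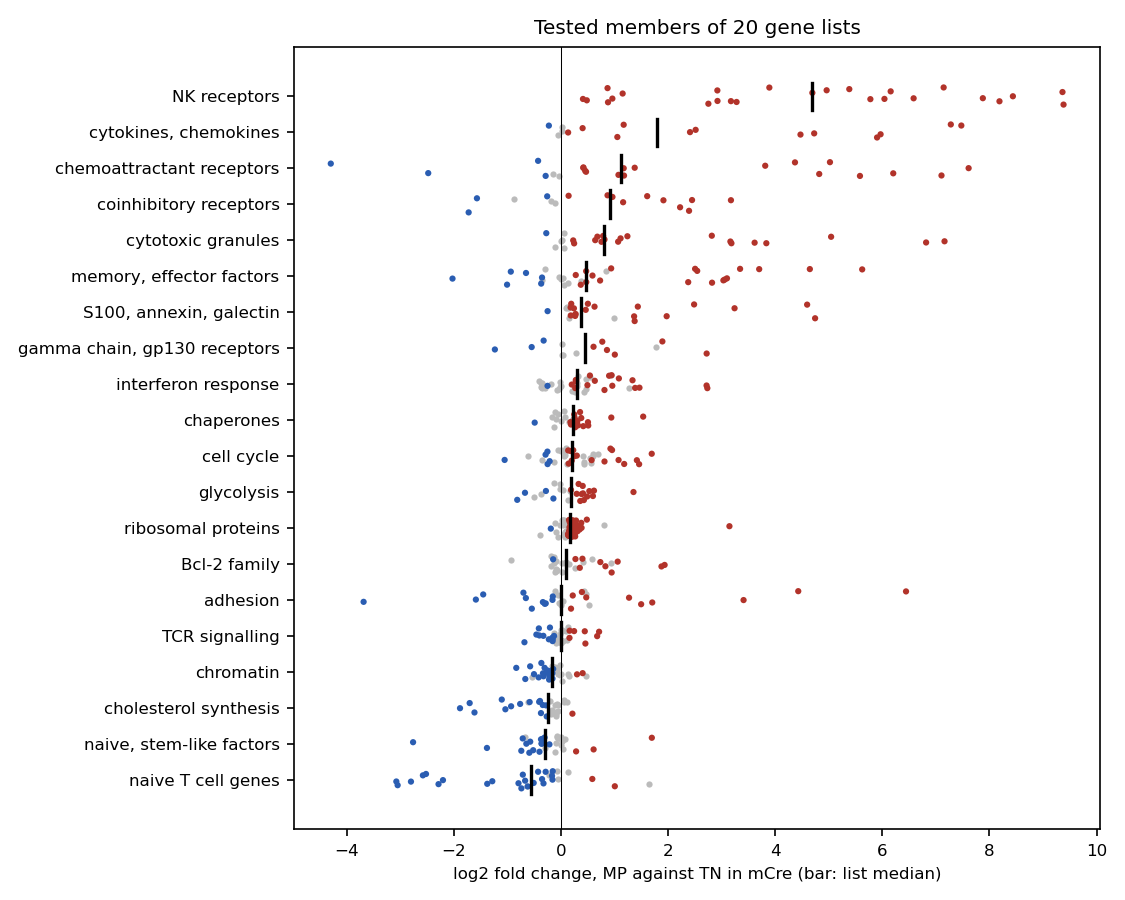
Log2 fold changes between MP and TN in mCre (x axis) of the tested members of 20 gene lists (rows), with called members dark, others pale, and the list median as a vertical bar. Members with 0 counts in a subset stand at fitted values, which depend on the prior count. NK receptors and cytokines lie to the right, naive T cell genes and cholesterol synthesis to the left of 0, and T cell receptor signalling stays within 1 log2 unit.

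Survival genes rose on both sides of the Bcl-2 family. Bcl2 had 268 and 251 CPM in TN and 554 and 527 CPM in MP (log2 fold change 1.06, SE 0.0578, adjusted p = 2.9e-11), and Bcl2l1 (Bcl-xL) had 12.2 and 10.4 CPM in TN and 46.8 and 37.3 CPM in MP (log2 fold change 1.88, SE 0.119, adjusted p = 4.6e-09), both inhibitors of cell death. The death-promoting members Bcl2l11 (Bim), Pmaip1 (Noxa) and Bbc3 (Puma) rose by 0.83, 0.73 and 0.40. Mcl1 fell slightly (-0.15, not called without MP library 1 or 2 or TN library 2, at -0.16 to -0.11), and in all 9 of 29 rose and 1 (0 without MP library 1 or TN library 2, 2 without WT-TN library 1 or 2, 3 without TN library 1) fell. With total counts in place of TMM 4 fell, and with either other filter on low counts 2 fell. Gimap genes, GTPases of lymphocyte survival in a cluster on chromosome 6, rose in 6 of 8 members, with Gimap7 at 41.5 and 35.1 CPM in TN and 101 and 90.9 CPM in MP (log2 fold change 1.31, SE 0.0908, adjusted p = 3.0e-07) and Gimap4 at 0.73. The list of S100, annexin and galectin genes rose in 18 of 24 members and fell in 1, S100pbp (-0.25, not called without MP library 2 or TN library 1, at -0.21 to -0.20). S100a4 had 1.8 and 0.924 CPM in TN and 34 and 36.1 CPM in MP (log2 fold change 4.60, SE 0.167, adjusted p = 7.7e-14) and overlaps another gene on its strand. Lgals3 (galectin-3) had 1.24 and 1.28 CPM in TN and 11.6 and 12.3 CPM in MP (log2 fold change 3.24, SE 0.214, adjusted p = 5.4e-10), and Ahnak, a large scaffold protein, had 489.6 and 399.9 CPM in TN and 1849 and 1647 CPM in MP (log2 fold change 1.97, SE 0.119, adjusted p = 3.8e-05).

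Several genes that make and sense extracellular adenosine rose. Entpd1 (CD39), which degrades ATP, had 0.196 and 0.359 CPM in TN and 4.56 and 2.67 CPM in MP (log2 fold change 3.74, SE 0.411, adjusted p = 7.0e-07). Nt5e (CD73), which makes adenosine, had 30.5 and 27.2 CPM in TN and 129.8 and 111 CPM in MP (log2 fold change 2.05, SE 0.107, adjusted p = 3.0e-07). Cd38, an NAD hydrolase, had 2.52 and 1.8 CPM in TN and 12 and 13.2 CPM in MP, and the adenosine receptor gene Adora2a had 17.5 and 14.8 CPM in TN and 53.3 and 45.2 CPM in MP (log2 fold change 1.59, SE 0.106, adjusted p = 7.1e-09). Adk, which removes adenosine inside the cell, fell by 0.70, and Ampd1 was among the largest falls, given above. Of 19 tested members of this purine list 6 rose and 7 fell. Among enzymes of cyclic AMP, besides Adcy6, with 80.0 and 75 CPM in TN and 16.5 and 21.2 CPM in MP, the phosphodiesterase genes Pde4b and Pde4d fell by 0.71 and 0.99.

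Ion channel genes included some of the steepest contrasts outside the immune receptors. Kcnj8, the pore of an ATP-sensitive potassium channel, had 0.262 and 0.257 CPM in TN and 26.1 and 25.5 CPM in MP (log2 fold change 6.60, SE 0.187, adjusted p = 1.2e-15). Kcnk5, a background potassium channel, had 0.295 and 0.154 CPM in TN and 26.1 and 19.9 CPM in MP (log2 fold change 6.55, SE 0.254, adjusted p = 2.1e-13). Kcna2, a voltage-gated channel, went the other way, with 98.4 and 93.9 CPM in TN and 28.5 and 31.6 CPM in MP (log2 fold change -1.67, SE 0.0738, adjusted p = 1.1e-12), and Kcna3, the main voltage-gated potassium channel of T cells, fell by 0.70. Trpm1, a cation channel, had 15.1 and 9.85 CPM in TN and 0.989 and 1.48 CPM in MP (log2 fold change -3.31, SE 0.27, adjusted p = 2.0e-07). Of 56 tested channel genes 11 rose and 18 fell. Every TN library was under the filter level in 4 of the 56, and every MP library in 1. Trpc1 had 0 counts in TN and 41 in MP, at least 15.7-fold higher. Among 217 transporter genes of the Slc families 34 rose and 29 fell, shares near those over all genes; Slc9a7, a sodium-proton exchanger, rose by 2.21.

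Cytoskeletal and phosphatase genes held further contrasts of size. Myo1f, a myosin of leukocytes, had 124 and 119 CPM in TN and 399.9 and 384 CPM in MP (log2 fold change 1.69, SE 0.0515, adjusted p = 3.9e-15). Tln2, a talin that links integrins to actin, had 0.0655 and 0.359 CPM in TN and 10.8 and 11.7 CPM in MP (log2 fold change 5.91, SE 0.332, adjusted p = 4.6e-11). Dock9, which activates Cdc42, rose by 1.79 and Arhgef11, which activates RhoA, fell by 1.61; Arhgef11 overlaps a gene on the opposite strand. Of 59 tubulin, kinesin and dynein genes 15 fell and 4 rose, with Kif13a at 22.6 and 21.8 CPM in TN and 1.37 and 3.7 CPM in MP (log2 fold change -3.06, SE 0.267, adjusted p = 1.1e-05). The number that fell was 7 without MP library 1 and 9 without MP library 2. The rises were Dync2li1 (2.05), Kif9 (0.82, not called without MP library 1 or 2 or TN library 1 or 2, at 0.76 to 0.87), Dynll2 (0.26, not called without MP library 1 or TN library 1, at 0.17 to 0.21) and Kif13b (0.21, not called without MP library 1 or 2 or TN library 1, at 0.16 to 0.21). The phosphatase genes Ptpn4, Ptpn13 and Ptprj rose by 1.29, 2.14 and 2.94.

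Metabolic genes differed by pathway. Of 30 genes of cholesterol synthesis and uptake 14 fell and 1 rose (median -0.24); the rise was that of Abcg1 (0.21, not called without MP library 1 or TN library 1, at 0.15 to 0.18), which exports cholesterol. Sqle, the squalene epoxidase gene, had 26.8 and 23.3 CPM in TN and 6.98 and 6.66 CPM in MP (log2 fold change -1.88, SE 0.126, adjusted p = 6.9e-10). Cyp51 fell by 1.04, Hmgcs1 by 0.76 and Srebf2, the factor that switches these genes on, by 0.58. In Sqle, Cyp51, Hmgcs1 and Srebf2 both MP libraries were under both TN libraries. Of 25 glycolysis genes 13 rose and 4 fell, and 1 change was beyond 2-fold, that of the hexokinase gene Hk2, which had 1.73 and 1.59 CPM in TN and 4.01 and 4.52 CPM in MP (log2 fold change 1.35, SE 0.265, adjusted p = 5.4e-04). Pfkp rose by 0.62, the glucose transporter genes Slc2a1 and Slc2a3 by 0.60 and 0.53, while Pfkm and Hk1 fell by 0.67 and 0.28. The other falls were Ldhb (-0.82, not called without MP library 1 or TN library 1, at -0.63 to -0.61) and Pdk1 (-0.14, not called without MP library 1 or 2 or TN library 1 or 2, at -0.16 to -0.12). Pfkp overlaps a gene on the opposite strand. Of the genes of fatty acid oxidation 18.5% rose and 11.1% fell (median -0.02), near the 17% and 15.5% over all tested genes. Fatty acid oxidation had 5 higher and 3 lower of 27, led by the thioesterase gene Acot7 (18.7 and 17.2 CPM in TN and 65 and 55.9 CPM in MP, log2 fold change 1.74); the other rises were Acsl1 (0.74), Etfb (0.64), Acaa1a (0.20, not called without MP library 1 or TN library 1 or 2, at 0.16 to 0.21) and Acsl5 (0.16, not called without MP library 1 or 2, TN library 1 or WT-MP library 1 or 2, at 0.06 to 0.18), and the falls Acsl3 (-1.14), Lipa (-0.43) and Acadm (-0.37).

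Genes of protein synthesis rose by small amounts. Of 80 ribosomal protein genes 46 were called higher and 1 lower, with a median log2 fold change of 0.17; without MP library 2 the number higher was 22, and without TN library 2 it was 25. Rpl39l, a ribosomal protein paralog at a low level, had 0.229 and 0.0513 CPM in TN and 1.15 and 1.69 CPM in MP (log2 fold change 3.15, not called without MP library 2 or TN library 2, at 2.62 to 2.83). Of 88 genes of the respiratory chain and ATP synthase 24 (9 without MP library 2, 13 without TN library 1, 14 without MP library 1 or TN library 2) rose and none fell (median 0.10), and in DESeq2 13 rose. Chaperones and genes of the unfolded protein response rose in 16 of 28 and fell in 1, Hsf2 (-0.49, not called without TN library 2, at -0.40), with Hspa8 at 706 and 730.1 CPM in TN and 947 and 968 CPM in MP (log2 fold change 0.42, SE 0.0519, adjusted p = 3.6e-06) and Hsp90b1 at 0.50. Per length of transcript, the level of Ccl5 in TPM (transcripts scaled to 1000000 per library) was 17 and 2880.5 in TN and MP, against 9089.9 and 9943 for B2m, the light chain of class I molecules and one of the most abundant transcripts.

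Cell cycle genes rose in 16 of 40 tested members and fell in 5 (median 0.21). Mki67, the proliferation marker, had 6.15 and 4.62 CPM in TN and 18.6 and 16.9 CPM in MP (log2 fold change 1.69, SE 0.26, adjusted p = 0.00122), and Top2a, needed to separate chromosomes, had 9.69 and 9.6 CPM in TN and 17 and 16.9 CPM in MP (log2 fold change 0.81, SE 0.144, adjusted p = 2.0e-04). Ccnd3, the D-type cyclin of lymphocytes, rose by 0.57, and Cdk2 fell by 1.05. The other falls were Cdk6 (-0.25), Ccne1 (-0.29, not called without MP library 2 or TN library 1, at -0.24 to -0.22), Rb1 (-0.25, not called without MP library 1 or TN library 1 or 2, at -0.27 to -0.16) and Mcm7 (-0.21, not called without TN library 1, at -0.19). Without TN library 1 the number higher was 9, and without MP library 1 it was 10.

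Interferon-induced genes rose in 18 of 43, and 1 (0 without TN library 2, 2 without MP library 1, 5 without TN library 1) fell, namely Stat2 (median 0.29). With DESeq2, voom, total counts or either other filter 2 fell. Mx1, an antiviral GTPase, had 11.6 and 9.03 CPM in TN and 85.3 and 54.7 CPM in MP (log2 fold change 2.73, SE 0.267, adjusted p = 0.00129), Ifit2 had 43.8 and 44.4 CPM in TN and 96.8 and 75.1 CPM in MP (log2 fold change 0.96, SE 0.096, adjusted p = 7.8e-06) and the RNA sensor gene Ifih1 had 25.2 and 28.6 CPM in TN and 57.7 and 45.7 CPM in MP. In these genes MP library 1 was the higher of the MP libraries. Of 29 tested genes of MHC molecules and antigen processing 8 rose, 2 (1 without TN library 2, 4 without MP library 2 or TN library 1), Cd1d1 (-0.64) and Tap2 (-0.21, not called without TN library 2, at -0.15), fell, and the rest were not called (median 0.10). H2-K1 had 2636 and 2741 CPM in TN and 3576 and 3437 CPM in MP (log2 fold change 0.38, SE 0.0506, adjusted p = 7.3e-06) and H2-D1 rose by 0.37. H2-Q6 had 214 and 219 CPM in TN and 674 and 570.0 CPM in MP (log2 fold change 1.52, SE 0.0678, adjusted p = 4.5e-11). H2-Q genes are near-identical to each other, so reads may have been assigned to the wrong member or lost.

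Chromatin regulators fell more often than they rose. Of 36 tested 19 fell and 2 rose, none by 2-fold (median -0.17). The rises were Cbx7 (0.40) and Chd7 (0.30); Jarid2, a partner of polycomb complex 2, had 109.9 and 102 CPM in TN and 64.4 and 69 CPM in MP (log2 fold change -0.67, SE 0.064, adjusted p = 1.2e-07), and Kmt2d and Suz12 fell by 0.42 and 0.34. Of 19 genes of DNA methylation and demethylation 8 fell and 3 rose, namely Gadd45g (1.16), Apobec3 (0.66) and Zbtb38 (0.29, not called without MP library 1, at 0.22). Tet1, which starts demethylation, had 51.5 and 46.5 CPM in TN and 17 and 19.2 CPM in MP (log2 fold change -1.43, SE 0.0848, adjusted p = 9.8e-11). Dnmt3a, a methyltransferase that sets new marks, had 135 and 126 CPM in TN and 80.6 and 86.5 CPM in MP (log2 fold change -0.64, SE 0.0600, adjusted p = 7.5e-08). Of 17 genes of microRNA processing and silencing 6 fell and 1, Mov10 (0.46), rose, with Ago2 at -0.37 and Tnrc6b at -0.35. Ago2 overlaps a gene on the opposite strand.

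Because the series title names miR-29, its mature sequences are shown with bases 2 to 8, the seed that pairs with messenger RNA, in capitals (RefSeq, GRCm38.p6).
miR-29a-3p: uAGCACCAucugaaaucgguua
miR-29b-3p: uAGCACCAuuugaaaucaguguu
miR-29c-3p: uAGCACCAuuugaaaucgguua

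All share a seed, whose match in messenger RNA is TGGTGCT. Published miR-29 targets went both ways between subsets, 9 higher and 15 lower of 29, with Tbx21, Eomes, Ifng, Bcl2 and Itgb1 among the rises and Tet1, Dnmt3a, Jarid2 and Bace1 (-0.75) among the falls. Of 1952 tested genes whose longest annotated 3' untranslated region (UTR) in GENCODE M21 holds the match, 15.8% rose and 21.2% fell, and of 9707 without it 17.6% rose and 14.7% fell. UTRs with a match were longer (median 2614 against 1143 bases). Among UTRs in the shortest, middle and longest of 3 groups of equal size, 15.5%, 17.6% and 23.6% of genes with a match fell, and 10.6%, 15.8% and 19.1% of genes without. In WT, the share that fell was 20.1% with and 15.2% without a match over all lengths. These shares are descriptions without a test, since genes of the same sample are not replicates.

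Markers of other cells that the sort could have held were examined for each library. Of 15 tested NK and innate lymphoid markers 14 rose, but 4 of the 15 had every TN library under the filter level and so had to differ. The summed level of the list was 1097 and 1143 CPM in TN and 2131 and 2100 CPM in MP. Most of that sum came from genes that CD8+ T cells also express, such as Il7r and Nkg7; the NK receptor gene Ncr1 had 0 counts in TN and 18 in MP, 15 of them in MP library 2, and lost its call without TN library 1 and without MP library 2 (adjusted p = 0.0821 and 0.156). Of 14 tested myeloid markers none was called, with sums between 37.4 and 47.1 CPM, and Ly6g had 0 counts in all 4 libraries. Of the 7 myeloid markers not tested, the neutrophil genes S100a8 and S100a9 had 23 and 27 counts in MP library 2 and 0 in the other 3, and Mpo had 24 counts in MP library 2, 0 in MP library 1 and 2 and 1 in the TN libraries. Erythroid and platelet markers summed to 33.4 and 67.9 CPM in TN and 27.8 and 50.7 CPM in MP, higher in library 2 of each subset. The part of these cells in the differences between library 1 and library 2 was not tested. B cell markers summed to between 19 and 28 CPM; Cd79a had 1.28 and 1.54 CPM in TN and 1.76 and 1.28 CPM in MP, while Cd22, an inhibitory receptor of B cells, had 0.0982 and 0.0513 CPM in TN and 5.11 and 4.81 CPM in MP (log2 fold change 5.86, SE 0.441, adjusted p = 3.5e-09). Markers of CD4 and regulatory T cells summed to between 88.4 and 104 CPM. The dendritic cell list summed to 335 and 324 CPM in TN and 234 and 272 CPM in MP and holds Ccr9. The gamma delta list summed to 22.5 and 29.2 CPM in TN and 908 and 832 CPM in MP, of which nearly all was Cd163l1, and Sox13, a factor of gamma delta T cells, fell by 2.96. Other markers of that list were not analysed here. In a wider list of innate-like T cell genes, 3 of 8 tested rose: Cd163l1, 5830411N06Rik (2.87) and Zbtb16, which encodes the factor PLZF of innate-like T cells. Every TN library of Zbtb16 was under the filter level, so it had to differ. Of the 18 genes listed 10 were not tested. Zbtb16 had 0 counts in TN and 12 in MP, at least 4.6-fold higher, and lost its call without TN library 1 (adjusted p = 0.0537). The part of other cells in the rises of NK-type and innate-like genes was not tested.

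Since the labels leave the ages of the animals open, genes known from fetal and neonatal lymphocytes were examined as well. Of 9 tested, 3 rose and 2 fell: Zbtb16 rose, as did Arid3a (1.21) and Hmga1 (0.46), and Sox4 and Ikzf2 fell. Zbtb16 had every TN library under the filter level and so had to differ. The other 9 of the 18 listed genes were not tested, among them Igf2bp1 and Hmga2, with 0 counts in each mCre library. Lin28b, also untested, had 0 counts over the TN libraries and 3 over the MP libraries. Among semaphorins, plexins and ephrins 8 of 25 rose and 6 fell, and among the falls were Sema3d (-2.36), Plxna3 (-1.94), Sema4g (-1.74) and Ephb6 (-0.97). Tetraspanin genes showed 4 rises and 3 falls among 16 tested, with Tspan9 rising most (2.30) and Cd9 falling most, at 8.8 and 6.83 CPM in TN and 2.97 and 2.8 CPM in MP (log2 fold change -1.45, SE 0.209, adjusted p = 2.0e-05).

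Among the called genes 37 had 0 counts in 1 of the subsets. The following were chosen after their values were seen. Dsg2, a desmosomal cadherin, had 0 counts in TN and 773 in MP, at least 296-fold higher. Rab27b, a GTPase of granule release, had 0 and 107 counts, at least 41-fold higher. Rab27b lost its call in the fit on the mCre libraries alone (adjusted p = 0.0646) and without WT-MP library 1 or 2 (adjusted p = 0.0672 and 0.0813). Pvrig, a coinhibitory receptor, had 0 and 58 counts (at least 22.2-fold), and the giant cadherin gene Fat1 0 and 51 (at least 19.6-fold). Hacd1, an enzyme of fatty acid elongation, went the other way, with 48 counts in TN and 0 in MP, at least 13.9-fold lower. Gas7, an adaptor of the actin skeleton, had 0.131 and 0.359 CPM in TN and 153 and 124 CPM in MP (log2 fold change 9.25, SE 0.353, adjusted p = 1.5e-05), and Samd3 had 0.295 and 0.257 CPM in TN and 110.1 and 92.4 CPM in MP.

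Whether the subset difference was the same in mCre as in WT was tested gene by gene as an interaction in the same fit. Of 12313 genes 16 (0.13%) were called, 6 with a more positive difference in mCre (0.0487%) and 10 with a more negative one (0.0812%), of which 3 (0.0244%) and 6 (0.0487%) exceeded 2-fold. In WT 31.7% of genes were called in the contrast of subsets. In the interaction 729 genes had an unadjusted p under 0.05. With voom 4 and 3 genes were called, with DESeq2 13 and 13, and with no filter on low counts 44 and 37. Without mCre-MP library 1 the number with a more positive difference was 20, and without WT-TN library 1 it was 10; the number with a more negative one was 3 without WT-TN library 2, 4 without WT-MP library 1, and 6 without WT-MP library 2 or mCre-MP library 2. Cd86, the costimulatory ligand usually found on antigen-presenting cells, had 8.08 and 10.1 CPM in TN and 13 and 14.6 CPM in MP in mCre, and 14.3 and 16.6 CPM in TN and 8.12 and 7.08 in MP in WT. It was higher in MP than TN in mCre (log2 fold change 0.62) and lower in WT (-1.03), an interaction of 1.64 (SE 0.202, adjusted p = 4.7e-04). Without mCre-TN library 1 the rise within mCre was not called (adjusted p = 0.0608).

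Ikzf2 also pointed in opposite directions. It had 34.8 and 32.8 CPM in TN and 16.3 and 17.4 CPM in MP in mCre, and 23.4 and 22.5 CPM in TN and 31.5 and 26.7 in MP in WT, so that it fell by 1.01 in mCre and rose by 0.35 in WT (interaction -1.35, SE 0.134, adjusted p = 3.7e-05). The library values show that mCre-TN lay above WT-TN and mCre-MP below WT-MP. Hectd2, a ubiquitin ligase gene, had 28.7 and 29.3 CPM in TN and 23 and 20.2 CPM in MP in mCre, and 16.9 and 16.9 CPM in TN and 27 and 24.2 in MP in WT (interaction -1.03, SE 0.136, adjusted p = 9.9e-04).

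In other genes the direction was shared and the size differed. H2-Q6 had 404 and 431 CPM in TN and 552 and 579 in MP in WT, where its MP level was near that of mCre-MP and its TN level was well above that of mCre-TN (interaction 1.09, SE 0.0942, adjusted p = 3.7e-05). Traf1, an adaptor of TNF receptors, had 65.5 and 60.8 CPM in TN and 187 and 161 CPM in MP in mCre, and 109 and 109 CPM in TN and 188 and 179.8 in MP in WT (interaction 0.70, SE 0.092). Its MP libraries were alike in both genotypes, as were those of Hopx, which had 26.5 and 25.6 CPM in TN and 155 and 153 in MP in WT (interaction 0.49). S100a6 rose less in mCre than in WT (4.74 against 5.91, interaction -1.16, SE 0.141). The annexin gene Anxa2 (1.38 and 2.04), Itm2a (0.62 and 1.30), Atf6, a sensor of unfolded protein (0.51 and 1.10), and Edaradd (1.32 and 2.76) likewise rose less in mCre.

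The remaining called genes were low or small. Gpr55, a receptor for lysophosphatidylinositol, had 0.524 and 0.719 CPM in TN and 8.3 and 8.72 CPM in MP in mCre (interaction 2.37, adjusted p = 0.0300), and Il12rb2, a chain of the IL-12 receptor, had 5.53 and 4.57 CPM in TN and 6.65 and 5.76 CPM in MP in mCre, and 3.4 and 2.04 CPM in TN and 10.3 and 9.71 in MP in WT (interaction -1.64, adjusted p = 0.0252). H2-Q7, Clec2i and Fam135b had interactions of 0.58, -0.48 and -1.07. Cd86, Ikzf2, Hectd2, H2-Q6, H2-Q7 and Traf1 kept the interaction call under each alternative that was run, and S100a6 lost it with voom alone; each of the other 9 lost it when at least 1 library was left out. The 30 genes with the largest changes in mCre, S100a6 apart, did not pass this test: for Ccr9 the log2 fold changes were -4.30 in mCre and -5.39 in WT (adjusted p of the difference = 0.959), and for Ccl5 7.47 and 8.11 (adjusted p = 0.0926).

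**Figure D5:**
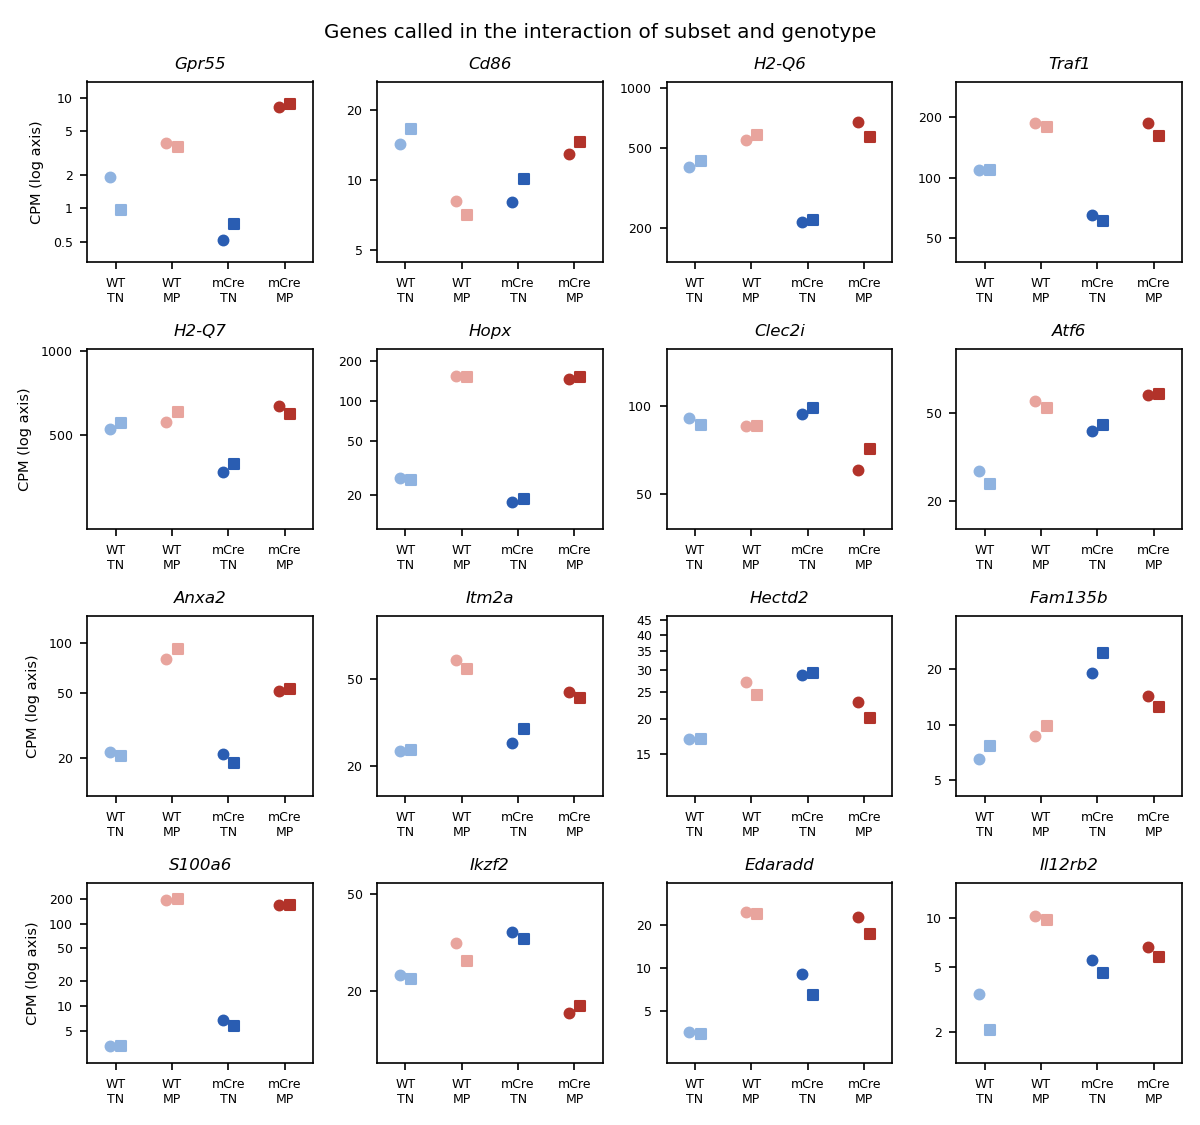
Levels in CPM (log axis) of the 16 genes called in the interaction test in all 8 libraries, by group, with circles for library 1 and squares for library 2. In Cd86, Ikzf2 and Hectd2 the subsets trade order between the genotypes, and in H2-Q6, Traf1 and Hopx the MP libraries of both genotypes lie close together while the TN libraries differ.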

How the data were processed

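RNA of sorted splenic CD8+ T cells was sequenced as 8 libraries in 4 groups of 2. The authors deposited 1 table of raw read counts per gene symbol, with 29426 genes and all libraries as columns. Per the submitters' processing notes, Trim Galore, HISAT2 and featureCounts were used with mm10; their versions, the annotation and the strand and multi-mapping settings are unstated. Without strand, a gene and its antisense partner cannot be told apart, and reads of near-identical genes can be lost.

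Counts were scaled by TMM, filtered with filterByExpr (12313 genes left) and fitted over all 8 libraries with edgeR 4.0.16 (R 4.3.3, quasi-likelihood, robust, 1 mean per group). Contrasts were MP minus TN in mCre, the same in WT, and their difference, and every adjusted p is from this fit, by Benjamini-Hochberg over all tested genes, unless another tool is named. SE is the fold change divided by the square root of F. CPM uses TMM-scaled library sizes, and TPM the exon length in GENCODE M21, which matched every symbol. The script was tested on simulated data.

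Alternatives were other scalings, other filters, DESeq2 1.42.0, limma voom 3.58.1, mCre libraries alone, replicate number as a block, and each library left out. The members of the gene lists and the tests were chosen with earlier results of these data known. Genes were named by rule: the 15 largest called changes in each direction with non-overlapping libraries and a mean log2 CPM of at least 3, leaving out predicted genes, pseudogenes, small RNA genes and receptor segments; up to 8 members per list by p or with a defining role; the sorted markers; called interaction genes, up to 8 per direction; and the 10 called genes of highest level in each subset. Genes that make up counts of 5 or fewer were named after their values were seen. Intervals and limits for low counts cover counting error only. A few genes that the rule names are not reported here.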

Additional observations from a re-analysis of the deposited data

Results flagged for a closer look

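For 16 genes the difference between MP and TN in mCre differed from the same difference in WT by the test of the difference itself (edgeR's quasi-likelihood test, adjusted p under 0.05). Values are the log2 difference in mCre minus that in WT, followed by the libraries whose removal ended the call, with the value or its range without them. More positive in mCre were Gpr55 (2.37, not called without MP library 2, TN library 1 or 2, WT-MP library 1 or 2 or WT-TN library 1, at 1.84 to 2.56), Cd86 (1.64), H2-Q6 (1.09), Traf1 (0.702), H2-Q7 (0.58) and Hopx (0.491, not called without MP library 2, TN library 1, WT-MP library 1 or 2 or WT-TN library 1 or 2, at 0.44 to 0.52).

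More negative in mCre were Il12rb2 (-1.64, not called without MP library 2, TN library 1, WT-MP library 1 or 2 or WT-TN library 2, at -1.68 to -1.28), Edaradd (-1.44, not called without TN library 1, WT-MP library 1 or 2 or WT-TN library 1 or 2, at -1.47 to -1.17), Ikzf2 (-1.35), S100a6 (-1.16), Fam135b (-1.07, not called without MP library 2, TN library 2, WT-MP library 1 or 2 or WT-TN library 1 or 2, at -1.21 to -0.90) and Hectd2 (-1.03). The smaller ones were Itm2a (-0.673, not called without MP library 2, TN library 2, WT-MP library 1 or WT-TN library 2, at -0.68 to -0.58), Anxa2 (-0.667, not called without MP library 2, TN library 1, WT-MP library 2 or WT-TN library 2, at -0.69 to -0.57), Atf6 (-0.587, not called without MP library 2, TN library 2, WT-MP library 1 or WT-TN library 2, at -0.60 to -0.48) and Clec2i (-0.483, not called without MP library 1, TN library 1 or 2, WT-MP library 1 or 2 or WT-TN library 2, at -0.52 to -0.39). With 2 libraries per group, no test for a single deviating value within a group was made.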

How the results depend on the processing

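Between MP and TN in mCre, 2092 genes were called higher and 1908 lower. Other scalings, filters, tools and samples gave 1665 (DESeq2) to 2282 (no filter on low counts) higher and 1462 (DESeq2) to 2271 (total counts) lower. Leaving out 1 library gave 1523 to 2262 higher and 1274 to 1988 lower, and past 2-fold 583 to 665 higher and 255 to 353 lower. The share of the original calls kept ran from 67.6% (without mCre-MP library 1) to 99.4% (RLE size factors). Scaling by total counts moved the median of all genes from 0.00 to -0.03 on the log2 scale and the split to 1803 higher and 2271 lower. The interaction had 6 genes more positive and 10 more negative in mCre; these became 44 and 37 with no filter, 13 and 13 in DESeq2, 4 and 3 with voom, and 4 to 20 and 3 to 13 with 1 library left out. No named gene that was called in the main fit or in an alternative changed direction between them. For genes called in neither, direction was not compared. Whether replicate numbers pair the libraries was not tested. Deviations of same-numbered TN and MP libraries were weakly correlated, at 0.0769 in mCre and 0.109 in WT. Between other groups the correlations were -0.0446 to -0.0139. With the replicate number as a block 2165 genes were higher and 1980 lower, and 7 and 11 were called in the interaction. The block also brought Cd8a past the threshold (adjusted p = 0.0439). In the fit on the mCre libraries alone Acsl5, Btg1, Igfbp4, Itgae and Rab27b were not called, at adjusted p from 0.0512 to 0.0857. With 2 libraries per group, the spread within a group is known poorly, and genes under the filter level of 0.486 CPM were not tested. The cause of these changes was not tested.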
